A study of Mus musculus with 48 samples.

Results

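The response of NMM melanoma cells to 100 ng/ml interferon γ (IFNγ) was set against the response to 1 ng/ml, to ask which transcripts still gained when the dose was raised 100 times. The comparison used 8 of the 48 libraries of the series, namely the 4 libraries given 100 ng/ml IFNγ alone and the 4 given 1 ng/ml IFNγ alone. Each dose had 1 library after 2, 6, 12 and 24 h of continuous stimulation, and the doses were paired by duration. NMM is a mouse melanoma cell line that carries mutated NRAS, so every group shares that mutation and the line's culture medium. The labels do not say which NRAS mutation it is, whether the line is 1 clone, or whether the durations came from separate cultures. Other libraries of the same line served as reference: unstimulated cells, 0.01 ng/ml IFNγ, 10 ng/ml TNF, 100 ng/ml IFNγ with 10 ng/ml TNF, and 6000 U/ml IL-2.

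IFNγ binds a receptor of IFNGR1 and IFNGR2 chains, which activate the kinases JAK1 and JAK2. Their signal reaches genes with gamma-activated sites (GAS) near the start. Transcription factors induced early, such as IRF1, act through interferon-stimulated response elements (ISRE), and SOCS1 is induced as a feedback inhibitor. In tumour cells the pathway is known for raising antigen presentation on MHC class I, chemokines that attract T cells, interferon-inducible GTPases and the checkpoint ligand PD-L1.

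The 8 libraries held between 6270301 and 8370395 counts. Levels are given in CPM, counts scaled to the library's normalized total, and a single count equalled between 0.119 and 0.159 CPM. Mitochondrial transcripts took 1.27% and 1.23% of counts at 2 h (1 and 100 ng/ml), 1.06% and 1.14% at 6 h, 0.688% and 0.75% at 12 h, and 0.627% and 0.693% at 24 h. Of the 14 melanocyte markers examined, Sox10, Mlana, Tyr, Tyrp1, Dct, Oca2 and Slc45a2 had 0 counts in all 8 libraries, so defining pigmentation markers of the labelled cell type were absent. Mitf, the melanocyte master regulator, was detected at 5.06 to 12.9 CPM over the 8 libraries. The 14 markers summed to between 401 and 613 CPM at 1 ng/ml and between 370 and 543 CPM at 100 ng/ml, nearly all of it Gpnmb. The summed level of the 11 T and NK cell markers was at most 0.810 CPM at 1 ng/ml and 0.987 CPM at 100 ng/ml. The 7 macrophage markers summed to between 35.3 and 53.3 CPM at 1 ng/ml and between 34.5 and 53.9 CPM at 100 ng/ml, with Adgre1 and Tyrobp at 0 in both. The 8 fibroblast markers summed to between 215 and 397 CPM at 1 ng/ml and between 198 and 375 CPM at 100 ng/ml, with Lum and Thy1 at 0 in both. The 6 endothelial markers summed to at most 6.64 and 6.11 CPM. The part of such markers in the results was not tested.

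Few transcripts differed between the doses, and by small amounts. Of 11376 genes tested, 14 were higher (0.123%) and 4 were lower (0.0352%) at 100 than at 1 ng/ml, at a Benjamini-Hochberg adjusted p under 0.05 in edgeR's quasi-likelihood test with duration as a block. Of the 14, 5 stand in the 2 lists of interferon-inducible GTPases, and others were the apolipoprotein Apol6, the MHC class I transactivator Nlrc5, and Cd274, which encodes PD-L1. They were 14.4% to 45.9% higher (log2 0.19 to 0.55), and none of the 18 changed by as much as 2-fold. The 4 lower genes, Id3, Nptx1, Dusp4 and Gm8730, were 14.8% to 17.6% lower. Bulk RNA cannot tell a higher level in every cell from a larger share of responding cells.

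The lower step of the dose series, from 0.01 to 1 ng/ml, gave much larger differences by the same test: 814 genes higher and 319 lower of 11417 (7.13% and 2.79%, 9.92% in all). The 2 steps share the 1 ng/ml libraries, so their values are set side by side without a test. All 14 genes higher at the upper step were also called higher at the lower one. The same test called 0 genes between IL-2 and unstimulated cells, another pair of 4 libraries each (477 of 11353 genes at an unadjusted p under 0.05, and 0 by DESeq2). That 0 also moved with the setting. It became 29 higher and 6 lower with the 12 and 24 h libraries alone, 11 and 3 without the 2 h libraries, and 6 and 6 without the filter on low counts. Between 100 and 1 ng/ml, 1007 genes had an unadjusted p under 0.05.

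The count of 18 rests on the samples that set the spread. With all 48 libraries in one model, 0 genes were called (303 at an unadjusted p under 0.05), as with the 16 libraries of the dose series (377) or without the duration block (46). DESeq2 on the same 8 libraries called 4 genes higher, F830016B08Rik, Gbp2, Gm8995 and Iigp1, and 0 lower. Without the 2, 6, 12 and 24 h libraries in turn, the counts were 6, 13, 3 and 100 higher and 0, 1, 1 and 282 lower. The sample numbers in the column names separate the 2 and 6 h libraries from the 12 and 24 h libraries. Within the first, 68 genes were higher and 163 lower, and within the second 0 and 0 (384 at an unadjusted p under 0.05). In each of these settings the 18 genes kept their sign.

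**Figure D1:**
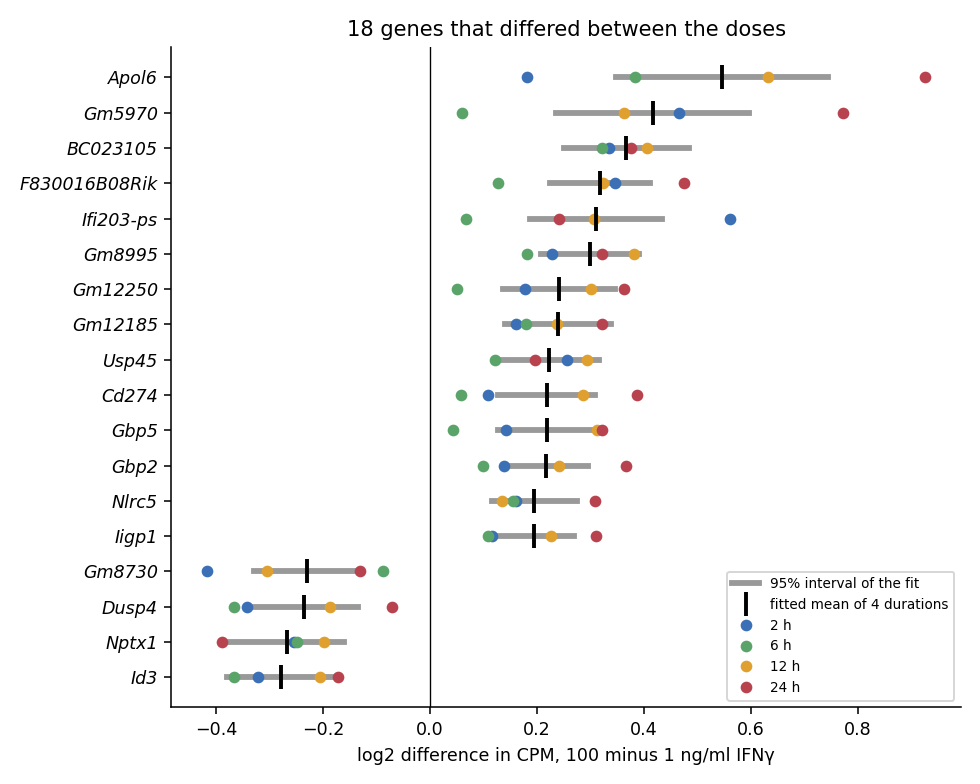
Log2 difference in CPM between 100 and 1 ng/ml IFNγ (x axis) for the 18 genes that differed (rows). Coloured points are the paired differences at 2, 6, 12 and 24 h, black ticks the fitted mean and grey bars its 95% interval. Every point of the 14 higher genes lies right of 0 and every point of the 4 lower genes left of it.

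All 18 genes had the same sign at each of the 4 durations. Over all genes tested, 7.38% were higher at all 4 durations and 7.87% lower at all 4. These genes passed a test that favours agreement over the durations, so the agreement is no separate evidence.

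The GC content of the transcripts differed between the called groups and moved with the differences over all genes. The 14 higher genes held 39.3% to 53.9% GC (median 43.3%) and the 4 lower genes 54.9% to 56.6%, against a median of 49.2% over the genes tested. In the quintile of all genes lowest in GC the median log2 difference was 0.06, 0.03, 0.10 and -0.04 at 2, 6, 12 and 24 h, and in the highest quintile it was -0.15, -0.07, -0.11 and 0.05. With an offset for GC content, chosen after seeing the data, 11 genes were higher and 5 lower, and 12 of the 18 kept their call. F830016B08Rik, Gbp2, Iigp1, Cd274, Usp45 and Gm5970 did not. Their differences with the offset were 0.27, 0.19, 0.14, 0.19, 0.17 and 0.36, against 0.32, 0.22, 0.19, 0.22, 0.22 and 0.42 without it. The part of GC content in the result was otherwise not tested.

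The guanylate-binding proteins, large GTPases that assemble on pathogen vacuoles, included 2 of the 14 higher genes. Of 11 members, 10 were tested, and 2 were higher and 0 lower. The fitted difference was above 0 for all 10, from 0.06 to 0.47 with a median log2 of 0.21, against 0.003 over all genes tested. At the lower step the median of the list was 2.73, and all 10 were called higher there. Members of this family are close in sequence, so reads may have been shared between them.

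Gbp2 (chromosome 3, 142620602 to 142638008, GRCm38) read 83.0, 119, 193 and 111 CPM in unstimulated cells after 2, 6, 12 and 24 h. It read 872, 2069, 2024 and 1731 CPM at 1 ng/ml and 959, 2215, 2391 and 2232 CPM at 100 ng/ml. The ranges of the 2 doses overlapped across durations, and the higher dose was above the lower at each duration. The fitted difference was 0.22 ± 0.04 (log2, SE, 4 pairs, adjusted p = 0.0125), a level 16.2% higher. The call was lost without the 2 h libraries (adjusted p = 0.0957), without the 12 h libraries (0.0702) and with the GC offset (0.0923).

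Gbp5 (chromosome 3, 142493978 to 142522344), which also promotes inflammasome assembly, read 110, 203, 282 and 265 CPM at 1 ng/ml. At 100 ng/ml it read 121, 209, 350 and 331 CPM. The gap was narrow at 6 h, with a log2 difference of 0.04, and wider at 12 and 24 h, with 0.31 and 0.32. Fitted over the 4 pairs, it differed by 0.22 ± 0.04 (adjusted p = 0.0370), and the call was lost without the 2 h (0.239) or the 12 h libraries (0.286).

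The other 8 tested guanylate-binding proteins did not pass the test as fitted here, and some passed in other settings. Gbp10 read 4.18, 18.2, 31.4 and 32.2 CPM at 1 ng/ml and 3.95, 24.4, 37.5 and 51.2 CPM at 100 ng/ml, level at 2 h and apart at 24 h. Its fitted difference was 0.43 ± 0.09 (adjusted p = 0.0579), and it passed with the GC offset (0.0418), with DESeq2's size factors (0.0362) and without the filter on low counts (0.00157). Gbp4 differed by 0.33 ± 0.08 (adjusted p = 0.278) and Gbp6 by 0.21 ± 0.05 (0.0921). Without the filter both passed at about the same difference (Gbp4 0.33, adjusted p = 1.7e-11, and Gbp6 0.22, 0.0173). Both also passed without the 24 h libraries (0.000871 and 0.00646), as did Gbp7 (0.00797), and Gbp4 passed without the 6 h libraries (0.00903). Over the alternatives, between 0 and 5 members of the list were called. Gbp3 had the smallest difference of the list, at 0.06 (0.676).

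The immunity-related GTPases, smaller enzymes that disrupt parasite vacuoles, included 3 higher genes of 10 tested: Iigp1, F830016B08Rik and Gm12250. All 10 tested members were higher at each of the 4 durations, with a median of 0.14 at this step and 2.40 at the lower step.

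F830016B08Rik read 138, 317, 257 and 202 CPM at 1 ng/ml and 176, 346, 321 and 280 CPM at 100 ng/ml, and 9.20 to 33.4 CPM in unstimulated cells. It differed by 0.32 ± 0.05 (adjusted p = 0.0021), or 24.7%, and it kept its call when any single duration was left out. It lost the call with the GC offset (0.220). Iigp1 was among the most abundant of the 18 genes. It read 2029, 2363, 1618 and 1366 CPM at 1 ng/ml and 2199, 2547, 1891 and 1694 CPM at 100 ng/ml, with overlapping ranges. Its fitted difference was 0.19 ± 0.04 (adjusted p = 0.0178), and it was lost without the 2 h (0.115) or the 12 h libraries (0.129).

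Gm12250 (chromosome 11, 58187739 to 58189012), listed in the file as a processed pseudogene, read 45.5, 113, 151 and 154 CPM at 1 ng/ml. At 100 ng/ml it read 51.5, 117, 187 and 198 CPM, close at 6 h and farther apart from 12 h. Gm12250 differed by 0.24 ± 0.05 (adjusted p = 0.0431), lost without the 2 h (0.291) or the 12 h libraries (0.286). Igtp differed by 0.16 ± 0.04 (adjusted p = 0.112), Tgtp1 by 0.14 (0.245) and Irgm1 by 0.10 (0.394), none of which passed. Igtp passed without the filter (0.17, adjusted p = 0.00401).

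BC023105, a pseudogene by the file's annotation, read 30.8, 58.6, 61.2 and 58.9 CPM at 1 ng/ml and 38.9, 73.3, 81.1 and 76.5 CPM at 100 ng/ml. Its paired log2 differences of 0.33, 0.32, 0.41 and 0.38 lay close together. BC023105 differed by 0.37 ± 0.06 (adjusted p = 0.0026), and it kept its call with any duration left out and with the GC offset (0.00158). Gm8995, Gm12185 and Gm5970 are predicted genes and were named after their values were seen. Gm8995 differed by 0.30 ± 0.04 (adjusted p = 0.0021), Gm12185 by 0.24 ± 0.05 (0.0338) and Gm5970 by 0.42 ± 0.09 (0.0449). All 3 lost the call without the 12 h libraries (adjusted p = 0.0628, 0.158 and 0.0951), and Gm12185 and Gm5970 also without the 2 h libraries (0.167 and 0.635). Gm12185 lost it without the 6 h libraries too (0.111). Of the 18 called genes, 6 are pseudogenes by the file's annotation, and their reads may come in part from related genes.

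Upstream sequences are shown for 3 of the higher GTPase genes because they hold the letters of elements known from interferon-responsive genes. Each is the 250 bases before the RefSeq start on GRCm38.p6, 5′ to 3′, with capitals at matches to GAS (TTCNNNGAA) or ISRE (TTTC, any 2 bases and TTTC, or on the other strand GAAA, any 2 bases and GAAA). Both strands were searched, and matches to the 2 motifs could overlap. The windows are chr3:142620413-142620662 for Gbp2, chr3:142496684-142496933 for Gbp5 and chr11:58183593-58183842 for Gm12250, all on the plus strand. The Gbp5 window lies inside the counted gene, which begins at 142493978. The Gm12250 window ends well before the counted gene, which begins at 58187739. The Gbp2 window runs past the start of its counted gene, at 142620602, and its ISRE match lies inside that gene. For all 3, the RefSeq start is not the start of the counted gene.
Gbp2: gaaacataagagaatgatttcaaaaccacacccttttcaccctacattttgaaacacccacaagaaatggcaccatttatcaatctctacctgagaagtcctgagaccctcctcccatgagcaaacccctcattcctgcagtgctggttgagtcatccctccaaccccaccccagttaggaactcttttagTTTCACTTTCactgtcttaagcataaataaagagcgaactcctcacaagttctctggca
Gbp5: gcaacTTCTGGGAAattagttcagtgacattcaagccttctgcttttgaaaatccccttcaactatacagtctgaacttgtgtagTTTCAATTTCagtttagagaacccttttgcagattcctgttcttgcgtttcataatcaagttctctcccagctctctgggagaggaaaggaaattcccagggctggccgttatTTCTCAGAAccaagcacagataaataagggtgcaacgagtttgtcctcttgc
Gm12250: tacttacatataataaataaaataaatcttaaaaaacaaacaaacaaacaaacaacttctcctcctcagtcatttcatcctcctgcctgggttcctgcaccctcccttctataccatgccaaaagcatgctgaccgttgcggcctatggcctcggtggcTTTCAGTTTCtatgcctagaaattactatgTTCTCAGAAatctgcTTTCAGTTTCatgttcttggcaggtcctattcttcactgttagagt
Gbp2 held 1 ISRE match, 59 bases before the start. Gbp5 held GAS matches 245 and 52 bases before the start and an ISRE match at 165. Gm12250 held a GAS match at 61 and ISRE matches at 91 and 46.

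Over all 32851 RefSeq windows, 7.02% held a GAS match and 2.98% an ISRE match. Of the 14 higher genes, 6 had a window, of which 3 held GAS and 4 held ISRE. Of the 4 lower genes only Id3 had one, and it held 0 of either. Among the 164 IFNγ-induced genes (defined below) with a window, 17.7% held GAS and 17.7% held ISRE. The median log2 difference between the doses was 0.14 for the 29 induced genes with GAS and 0.12 for the 135 without, and likewise 0.14 for the 29 with ISRE and 0.12 for the 135 without. A match describes these letters only and is no measurement of binding.

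Apol6 (chromosome 15, 77044729 to 77057107), of the apolipoprotein L family, had the greatest gain of the 14 genes. It was near the limit of detection in unstimulated cells, with 9 counts over the 4 libraries. It read 19, 26.8, 20.7 and 18.1 CPM at 1 ng/ml and 21.6, 35.1, 32.1 and 34.7 CPM at 100 ng/ml. The paired log2 differences were 0.18, 0.38, 0.63 and 0.93 at 2, 6, 12 and 24 h. Apol6 differed by 0.55 ± 0.10 (adjusted p = 0.0125), or 45.9%, lost only without the 12 h libraries (0.0628) among the durations left out. The level at 1 ng/ml was 68.5% of that at 100 ng/ml.

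Apol6 was the 1 gene called among 19 tested members of a list of serpins, complement and other IFNγ targets, whose median was 0.06 (1.61 at the lower step). The list also held C1s1, a complement protease, at 0.75 ± 0.25 (adjusted p = 0.334), and Serpina3f, a serine protease inhibitor, at 0.62 ± 0.18 (0.214). Serpina3f had 0 counts in the unstimulated libraries, 2.29 to 5.83 CPM at 1 ng/ml and 2.71 to 9.03 CPM at 100 ng/ml, so few counts stood behind it.

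**Figure D2:**
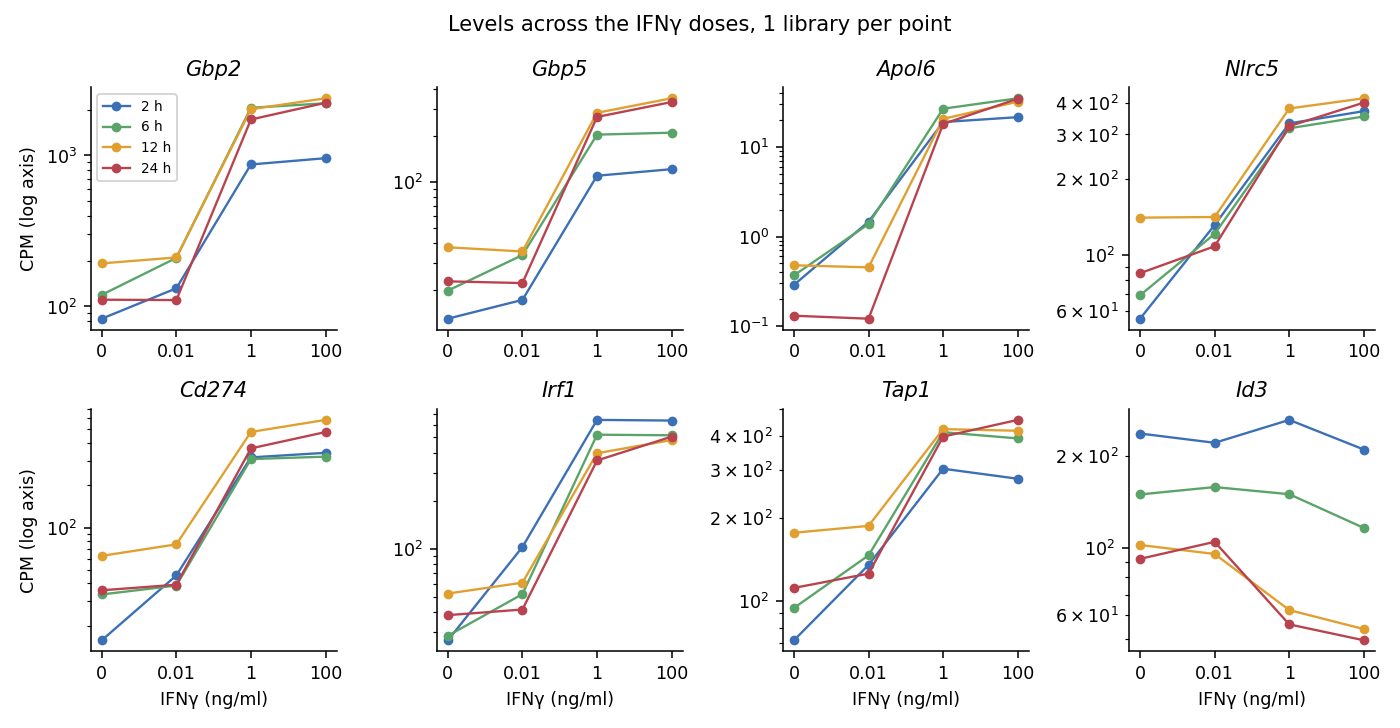
CPM (log axis) of Gbp2, Gbp5, Apol6, Nlrc5, Cd274, Irf1, Tap1 and Id3 in unstimulated cells and at 0.01, 1 and 100 ng/ml IFNγ, with 1 line for each duration. The induced genes climb steeply between 0.01 and 1 ng/ml and little from 1 to 100 ng/ml, as in Gbp2 at 2 h, which read 132, 872 and 959 CPM at 0.01, 1 and 100 ng/ml.

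Among 10 tested interferon-responsive transcription factors and coactivators, Nlrc5 was higher and 0 were lower. Nlrc5 (chromosome 8, 94434356 to 94527272) drives transcription of MHC class I genes. It read 332, 317, 380 and 324 CPM at 1 ng/ml and 371, 353, 417 and 401 CPM at 100 ng/ml, with overlapping ranges. Over the pairs it differed by 0.19 ± 0.04 (adjusted p = 0.0338), and the call was lost without the 2 h (0.304), 6 h (0.147) or 12 h libraries (0.0628).

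Irf1, the primary IFNγ-induced regulator, read 644, 520, 398 and 358 CPM at 1 ng/ml and 638, 516, 481 and 506 CPM at 100 ng/ml. The doses were level at 2 and 6 h and apart at 12 and 24 h. The fitted difference of 0.19 ± 0.10 did not pass (adjusted p = 0.686, 95% interval -0.07 to 0.44), and passed without the filter (0.00167). Batf2 read 11.3, 36.2, 62.9 and 69.7 CPM at 1 ng/ml and 11.2, 39, 74.5 and 106 CPM at 100 ng/ml. Its difference of 0.33 ± 0.08 did not pass (adjusted p = 0.123) but passed with the GC offset (0.00226) or without the filter (0.00167).

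The receptor, JAK-STAT and feedback genes showed no call among 13 tested. In the fit of the 8 libraries all 13 intervals lay within ±0.5 on the log2 scale, as did 85.6% over all genes tested. The standard error of Stat3 was 0.04 in that fit and 0.24 with all 48 libraries. The median was 0.05 at this step and 0.59 at the lower step. Jak2, a receptor-bound kinase, differed by 0.12 ± 0.04 (95% interval 0.03 to 0.21, adjusted p = 0.394). Stat3, known from the response to other cytokines, differed by 0.05 (-0.03 to 0.13, 0.754).

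Of 18 MHC class I heavy chain and peptide loading genes, 0 were called, with a median of 0.004, against 1.24 and 12 called higher at the lower step. Tap1, a subunit of the peptide transporter, differed by 0.00 (95% interval -0.09 to 0.09), and B2m, the shared light chain, by -0.01 (-0.08 to 0.06). H2-K1, a classical heavy chain, differed by -0.12 ± 0.05 (adjusted p = 0.516). Without the 24 h libraries 4 heavy chains of the list were called, H2-D1, H2-K1, H2-Q4 and H2-T23, with H2-K1 lower by a log2 difference of -0.21 (9.9e-05). With the 2 and 6 h libraries alone, H2-D1 and H2-K1 were called (H2-K1 -0.20, 0.00423). The median of the list was -0.14 at 2 h and 0.15 at 24 h. The 5 immunoproteasome and PA28 genes, which shape peptides for MHC class I, had a median of 0.02 with 0 called (1.57 at the lower step). Psmb8, a catalytic subunit, differed by 0.02 (-0.08 to 0.11). Psmb10 was called lower without the 24 h libraries and with the 2 and 6 h libraries alone. Its paired log2 differences were -0.42, -0.13 and -0.15 at 2, 6 and 12 h and 0.21 at 24 h. No member of the MHC class II list passed the filter on low counts.

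Cd274 (chromosome 19, 29367455 to 29388095) encodes PD-L1, the ligand that restrains T cells through PD-1. It read 15.7, 33.4, 62.9 and 35.7 CPM in unstimulated cells, 316, 308, 480 and 367 CPM at 1 ng/ml, and 341, 320, 585 and 479 CPM at 100 ng/ml. The gap between the doses was narrow at 2 and 6 h, with log2 differences of 0.11 and 0.06, and wider at 12 and 24 h, with 0.29 and 0.39. The fitted difference was 0.22 ± 0.04 (adjusted p = 0.0375), or 16.3%. The call was lost without the 2 h (0.163) or the 12 h libraries (0.223) and with the GC offset (0.519). Cd274 was the 1 gene called of 8 tested checkpoint, T cell ligand and adhesion genes, whose median was 0.10. Tnfsf10, the death ligand TRAIL, differed by 0.24 ± 0.08 (adjusted p = 0.375) and Cd47, which inhibits phagocytosis, by 0.09 (0.466).

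The 7 tested chemokines had 0 calls, a median of 0.15 and 7 differences above 0. Cxcl9, which attracts T cells through CXCR3, read 79.1, 70.6, 33.9 and 15.4 CPM at 1 ng/ml and 90.8, 86.1, 52.2 and 33.9 CPM at 100 ng/ml. It read lower at the later durations at both doses, and its fitted difference of 0.46 ± 0.13 did not pass (adjusted p = 0.394). Cxcl10, of the same receptor, differed by 0.08 ± 0.04 (0.556), and Ccl2, which attracts monocytes, by 0.24 ± 0.09 (0.522). Without the filter Cxcl9 (6.8e-09) and Ccl2 (0.000481) passed at about the same difference, and Cxcl9 passed without the 24 h libraries (0.33, 0.00175).

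Of 22 cell death genes, 0 were called and the median was -0.003. Casp4, the inflammatory caspase, differed by 0.27 ± 0.09 (adjusted p = 0.278). Of 41 antiviral genes, 0 were called, with a median of 0.03 (0.80 at the lower step, with 36 called higher). Their intervals in the fit of the 8 libraries lay within ±0.5 for 40 (97.6%, against 85.6% over all genes tested). Isg15, the ubiquitin-like modifier, differed by -0.03 (0.90) and Rsad2, which makes an antiviral nucleotide, by 0.07 (0.725). Among 5 tested immunometabolic enzymes 0 were called. Acod1, which makes itaconate, read 6.61, 7.34, 23.3 and 29.1 CPM at 1 ng/ml and 8.39, 6.82, 30.4 and 46.2 CPM at 100 ng/ml, a difference of 0.45 ± 0.10 (adjusted p = 0.0921) that passed with the GC offset (0.0364) and without the filter (0.00401). The 22 cell cycle genes (median -0.03) and 18 NF-kB genes (median 0.01) had 0 calls.

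**Figure D3:**
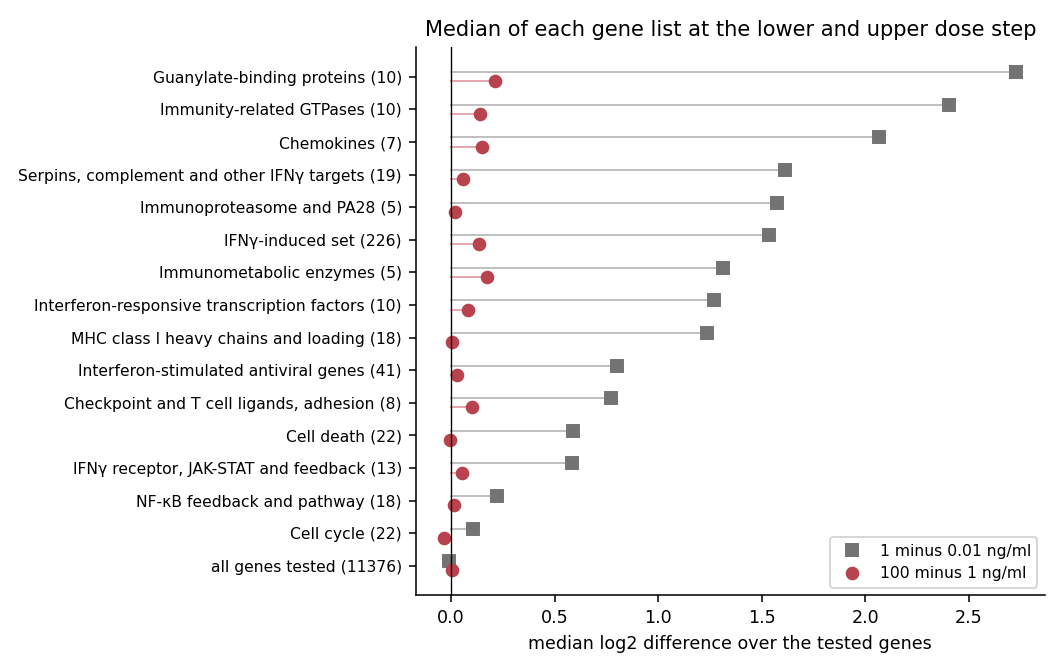
Median fitted log2 difference of each gene list (rows) for the lower step, 1 against 0.01 ng/ml, and the upper step, 100 against 1 ng/ml. The upper-step medians lie near 0, with the guanylate-binding proteins at 0.21, and the lower-step medians reach 2.73.

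Of the other higher genes, Usp45 (chromosome 4, 21767156 to 21837872), a ubiquitin-specific protease, read 108, 127, 117 and 121 CPM at 1 ng/ml and 129, 139, 143 and 139 CPM at 100 ng/ml. The ranges, up to 127 CPM at 1 ng/ml and from 129 CPM at 100 ng/ml, barely cleared each other. How many of all genes tested had separate ranges was not counted. The fitted difference was 0.22 ± 0.05 (adjusted p = 0.0375), lost without the 2 h (0.520), 6 h (0.0894) or 12 h libraries (0.286) and with the GC offset (0.0728). Ifi203-ps (chromosome 1, 173775837 to 173802720), an unprocessed pseudogene, read 65.7, 55.4, 114 and 102 CPM at 1 ng/ml and 97.0, 58.0, 141 and 120 CPM at 100 ng/ml. Its difference of 0.31 ± 0.06 (adjusted p = 0.0332) was widest in the 2 h pair, at 0.56, and the call was lost without that pair (0.615) and without the 12 h libraries (0.0951).

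The 4 lower genes belonged to none of the interferon lists. Id3 (chromosome 4, 136143497 to 136145755) inhibits basic helix-loop-helix factors. It read 263, 150, 62.4 and 56.0 CPM at 1 ng/ml and 210, 116, 54.1 and 49.7 CPM at 100 ng/ml, lower at the later durations at both doses. Id3 differed by -0.28 ± 0.05 (adjusted p = 0.0125), lost without the 2 h (0.336) or 6 h libraries (0.147). At the lower step Id3 differed by -0.30, which did not pass (0.382).

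Dusp4 (chromosome 8, 34807297 to 34819894), a phosphatase that inactivates MAP kinases, read 207, 123, 126 and 159 CPM at 1 ng/ml and 163, 95.5, 111 and 151 CPM at 100 ng/ml. The gap was widest at 2 and 6 h, with log2 differences of -0.34 and -0.37, and -0.07 at 24 h. Dusp4 differed by -0.24 ± 0.05 (adjusted p = 0.0375), lost without the 2 h (0.757), 6 h (0.312) or 12 h libraries (0.0970). Dusp4 was the 1 lower gene also called lower at the lower step, at -0.32 (0.0210). Nptx1 (chromosome 11, 119538719 to 119547753), a secreted neuronal pentraxin, differed by -0.27 ± 0.05 (adjusted p = 0.0270), from 46.3 to 158 CPM at 1 ng/ml and 40.3 to 133 CPM at 100 ng/ml. It was lost without the 2 h (0.239), 6 h (0.0987) or 12 h libraries (0.0628). Gm8730, a processed pseudogene named after its values were seen, differed by -0.23 ± 0.05 (0.0431), lost without the 2 h (0.757) or 12 h libraries (0.276).

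A set of IFNγ-induced genes was taken from libraries outside the comparison, as those called and at least 2-fold higher with 100 ng/ml IFNγ and TNF than with TNF alone. That comparison called 9.45% of 11305 genes (7.23% higher, 2.22% lower). Of the 238 genes in the set 226 were tested, and 12 of the 14 higher genes were among them. Both groups of that choice had TNF, so a rise with IFNγ alone was not required. At the lower step, with IFNγ alone, 202 of the 226 were tested and 162 were called higher. The fitted difference between 100 and 1 ng/ml was above 0 for 191 of the 226 (84.5%), against 51.5% of all genes tested. The median was 0.13, or 9.77%, against 0.003 over all genes. The interval of the fitted mean lay within ±1 for 214 genes (94.7%, against 98.3% of all genes tested). It lay within ±0.5 for 152 (67.3%, against 85.6%). Thus in the fit of the 8 libraries, for 214 of the 226 a mean difference of 2-fold or more lay outside the 95% interval. With all 48 libraries in the fit standard errors were larger, such as 0.41 against 0.08 for Gbp4 and 0.50 against 0.25 for C1s1. The intervals of that fit were not counted. The interval covers the mean over the 4 durations, not each duration.

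The level of the induced genes at 1 ng/ml was, at the median, 91.4% of that at 100 ng/ml, with quartiles of 84.8% and 96.6%. Over all genes tested that median was 100.1%. These levels include the unstimulated level. As a share of the gain over unstimulated cells, the median of the induced genes was 87.6%, against 81.5% over all genes tested. Both doses were set against the same unstimulated libraries in this share. The share of the level was under 80% for 32 induced genes, under 70% for 9 and under 60% for 1. Of the 202 genes tested at both steps, 197 differed less at the upper than at the lower step, with medians of 0.13 and 1.54. For 186 of the 202 the upper-step interval lay below the lower-step estimate. The 2 steps share the 1 ng/ml libraries and the genes were chosen as induced. Both favour a smaller upper step, so these counts describe the values and are no test. In the GC quintiles the median of the induced set was 0.14, 0.15, 0.14, 0.13 and 0.06 from lowest to highest GC.

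**Figure D4:**
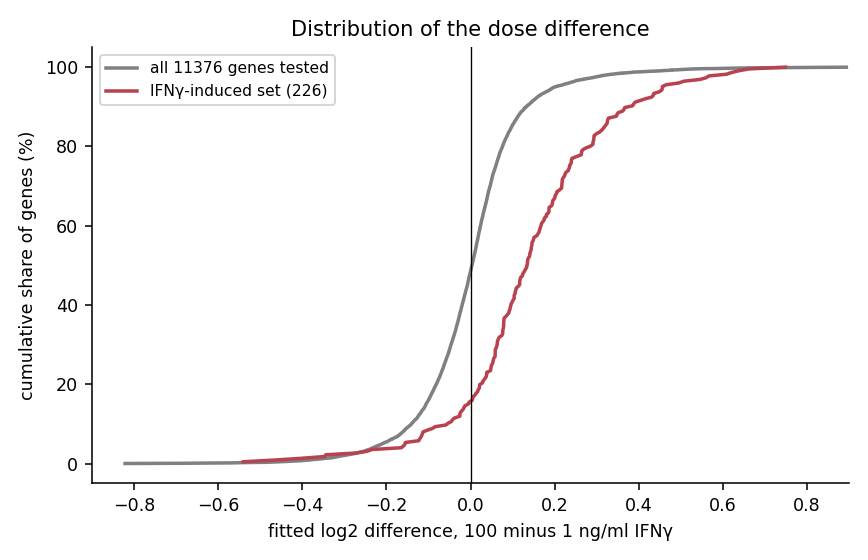
Cumulative share of genes (y axis) against the fitted log2 difference between 100 and 1 ng/ml IFNγ (x axis), for the 226 IFNγ-induced genes and all 11376 genes tested. The induced curve lies to the right, with a median of 0.13 against 0.003, and most of it stays below 0.5.

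The difference between the doses was wider at the later durations in the induced set. Its median was 0.04, 0.04, 0.13 and 0.26 at 2, 6, 12 and 24 h, with 132, 131, 168 and 205 of the 226 genes above 0. Over all genes the medians were -0.02, -0.00, 0.02 and -0.01. The rise differed with GC content. Induced genes in the lowest GC quintile had medians of 0.138, 0.023, 0.214 and 0.233. Those in the highest had -0.125, 0.050, -0.003 and 0.280. The part of GC content in the rise was not tested. These values come from 1 pair of libraries each and have no test.

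Gene by gene, the change of the dose difference with duration was tested as a slope on log2 hours in the same 8 libraries. The slope passed for 22 of 11376 genes (0.193%), 18 of them upward (0.158%) and 4 downward (0.0352%). The upward slopes rested on the last duration, as 0 passed without the 24 h libraries. The 3 downward slopes that passed there included only Gm1821 (adjusted p = 0.0318) of the 4. Without the 2 h libraries 0 downward slopes passed. DESeq2 called only Jun. With the GC offset 46 passed, 19 of the 22 among them, and Socs3 (adjusted p = 0.0529), Chpf and Scaf1 were lost. The named slopes kept their sign under each alternative that gave a value.

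Several upward slopes were IFNγ targets. The difference in Irf1 was -0.01, -0.01, 0.27 and 0.50 at 2, 6, 12 and 24 h, a slope of 0.14 ± 0.03 per doubling of the hours (adjusted p = 0.00719). Cxcl9 differed by 0.20, 0.28, 0.62 and 1.13 (slope 0.21 ± 0.05, 0.0339) and Ccl2 by 0.03, -0.05, 0.25 and 0.54 (0.14 ± 0.03, 0.0372). Socs3, a feedback inhibitor of cytokine receptors, differed by -0.22, -0.01, 0.09 and 0.56 (0.19 ± 0.04, 0.0169). Tap2, the partner of Tap1, differed by -0.25, -0.07, -0.04 and 0.43 (slope 0.17 ± 0.04, 0.0248). Psmb10, an immunoproteasome subunit, differed by -0.42, -0.13, -0.15 and 0.21 (slope 0.16 ± 0.04, 0.0372). Both were above 0 only at 24 h. Tgm2, a transglutaminase, went from -0.66 at 2 h to 1.30 at 24 h, a slope of 0.57 ± 0.12 (0.0113) lost without the 2 h libraries (0.706). It read at most 12.4 CPM, and 1.94 CPM at 24 h and 1 ng/ml, so few counts stood behind it. Fst, the activin antagonist follistatin, named after its values were seen, had a slope of 0.12 ± 0.03 (0.0372).

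The upward slopes also included Fos, Jun, Junb and Jund, which encode subunits of the transcription factor AP-1 and belong to none of the lists. Fos read 56.8, 34.7, 10.4 and 22.6 CPM at 1 ng/ml and 34.6, 37.0, 12.9 and 48.6 CPM at 100 ng/ml, lower at 2 h and higher from 6 h. Its slope was 0.49 ± 0.05 (adjusted p = 3.4e-10), which did not pass without the 24 h libraries (0.0949) or in DESeq2 (0.0755). Jun, named after its values were seen, read 305, 360, 265 and 280 CPM at 1 ng/ml and 228, 321, 264 and 408 CPM at 100 ng/ml. Its slope was 0.25 ± 0.03 (6.8e-07), and it also passed in DESeq2 (adjusted p = 0.00831). Junb had a slope of 0.30 ± 0.05 (0.0432) and Jund of 0.41 ± 0.07 (0.000747). Cebpd, a leucine zipper factor also named after its values were seen, had a slope of 0.23 ± 0.05 (0.00787). At 2, 6, 12 and 24 h Junb differed by -0.72, -0.49, -0.38 and 0.46 and Jund by -0.62, -0.34, -0.15 and 1.03. For Cebpd the differences were -0.44, -0.41, -0.13 and 0.43, so Junb, Jund and Cebpd were higher only at 24 h. Rpph1, the RNA of RNase P, had a slope of 0.65 ± 0.08 (1.6e-06).

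The downward slopes were those of Ahnak, a large scaffold protein, at -0.12 ± 0.03 (adjusted p = 0.0157), Zfp738, a zinc finger gene, at -0.36 ± 0.09 (0.0463), and the pseudogene Rpl31-ps8, at -0.57 ± 0.13 (0.0188). Gm1821, named after its values were seen, had -1.21 ± 0.21 (0.000340). Few counts stood behind the last 2, with 0.81 to 4.89 CPM for Gm1821 and 3.72 to 8.12 CPM for Rpl31-ps8 over the 8 libraries. Genes with a called slope held 39% to 67.1% GC, with a median of 54.2%. Without the 2 h libraries the slopes of Ahnak, Zfp738, Rpl31-ps8, Gm1821, Socs3, Psmb10 and Fst did not pass (adjusted p from 0.0865 to 0.946), and without the 6 h libraries that of Ccl2 did not (0.0702). Without the filter the slopes of Ccl2 (0.0507), Psmb10 (0.0526) and Fst (0.0962) did not pass.

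**Figure D5:**
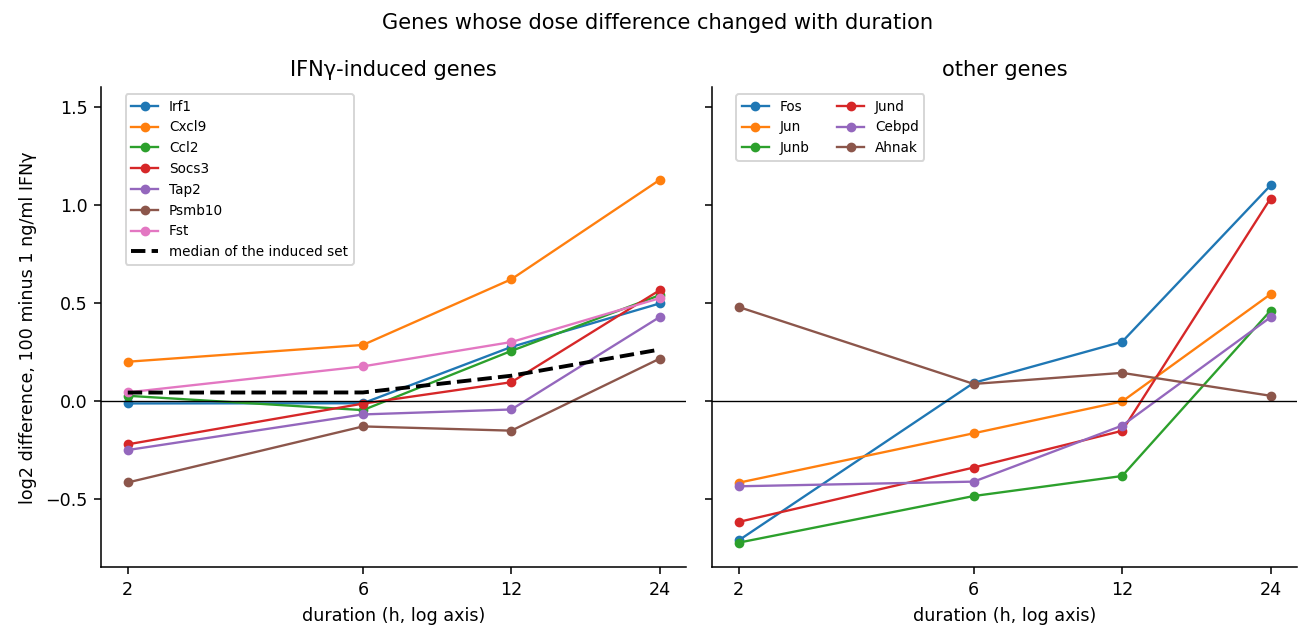
Log2 difference in CPM between 100 and 1 ng/ml IFNγ (y axis) against duration in hours (x axis). The left panel has IFNγ targets, Fst and the median of the 226 induced genes, and the right panel Fos, Jun, Junb, Jund, Cebpd and Ahnak. Most lines are higher at 24 h than at 2 h, with the induced median going from 0.04 to 0.26, and Ahnak runs the other way.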

How the data were processed

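RNA was extracted with RNeasy columns, made into TruSeq stranded mRNA libraries and sequenced on a HiSeq 2500, per the labels' protocols. The authors deposited raw read counts for 49671 Ensembl genes in 48 libraries, aligned with HISAT to GRCm38, per the submitters' processing notes. How reads were counted, with which annotation and with which strand option, is not given in the sources used here, so overlapping and antisense genes may share reads.

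The 8 libraries compared were tested in R 4.3.3 with edgeR 4.0.16: TMM scaling, genes passing filterByExpr (minimum count 10, minimum total 15), a robust quasi-likelihood fit with duration as a block, two-sided p-values adjusted by Benjamini-Hochberg, threshold 0.05. CPM values used the TMM-scaled totals, and single-pair log2 differences a prior count of 2. Errors after ± are standard errors, and intervals are 95%. The slope used the same libraries. Each dose and duration has 1 library, so the spread is that between durations. Nothing in the labels says that the samples came from separate cultures, so p-values measure only the spread between these samples, which may be technical. The labels give each pair its duration. Across genes, the deviations of the 2 doses' libraries from their group means correlated at 0.839, 0.726, 0.700 and 0.761 at the same duration (2, 6, 12 and 24 h), and at most 0.571 at different ones.

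The members, gene lists, tests and the choice of the 8 libraries over all 48 were made with earlier results of these data known. In particular, it was known that 48 libraries gave 0 calls and the 8 gave 18. Named genes were the called genes with 1 sign at all durations, without predicted genes outside the lists, up to 5 called slopes each way, and members of the lists. Others are marked as named after their values were seen. By the column names, the 2 and 12 h libraries shared 1 set of index sequences and the 6 and 24 h libraries another, and sample numbers separated the 2 and 6 h from the 12 and 24 h libraries. Every such set holds both doses. Within a set of index sequences each dose kept its own sequence, so dose and index sequence cannot be told apart. Alternatives were all 48 or 16 libraries, no block, DESeq2 1.42.0, its size factors, no filter, each duration left out, early or late durations alone, and a GC offset. Upstream sequences came from RefSeq, matched by symbol, and GC content from the longest GENCODE transcript, matched by Ensembl ID for 11359 of the 11376 genes. Fits were also run on simulated data with the same dispersion for every gene and no GC trend. Those settings differ from these data, so that run is no support for the calls.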

Additional observations from a re-analysis of the deposited data

Results flagged for a closer look

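Among 56 genes examined for 1 duration standing apart from the other 3, 5 had such a value, and chance gives about 5% of genes. At 24 h the log2 difference between 100 and 1 ng/ml stood apart in Nlrc5 (0.31) and Irf8 (0.76). Parp14 stood apart at 6 h (-0.0067), and Cx3cl1 (0.035) and Herc6 (0.30) at 2 h.

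The dose difference changed with duration, by the test of the slope on log2 hours, in 18 named genes. The upward slopes per doubling of the hours were 0.65 for Rpph1, 0.57 for Tgm2, 0.49 for Fos, 0.41 for Jund, 0.30 for Junb, 0.25 for Jun, 0.23 for Cebpd, 0.21 for Cxcl9, 0.19 for Socs3, 0.17 for Tap2, 0.16 for Psmb10, 0.14 for Ccl2, 0.14 for Irf1 and 0.12 for Fst. The downward slopes were -0.12 for Ahnak, -0.36 for Zfp738, -0.57 for Rpl31-ps8 and -1.21 for Gm1821.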

How the results depend on the processing

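Each of the 18 genes kept its sign in all 13 alternatives, with 97 of 234 gene-by-setting values still past the threshold. The GC offset, and the alternatives for the slopes of single genes, were chosen after seeing the data. For 100 against 1 ng/ml, genes called higher and lower were 0 and 0 with all 48 libraries, with the 16 of the dose series and with the 12 and 24 h libraries alone, 4 and 0 in DESeq2, 57 and 21 without the filter, and 68 and 163 with the 2 and 6 h libraries alone. Leaving out each duration gave 3 to 100 higher and 0 to 282 lower. With no replicate block, so without the pairing by duration, 0 and 0 were called, with 178 and 5 at the lower step, 62 and 1 for the combination with TNF, and 0 and 0 slopes. For the lower step, lower genes numbered 495 with 48 libraries, 598 with 16, 166 in DESeq2 and 186 at 2 and 6 h, while 1289 and 882 were called without the filter and 1527 and 1215 at 12 and 24 h. Leaving out each duration gave 330 to 1127 higher and 24 to 664 lower. For IFNγ with TNF against TNF, lower genes numbered 591 with 48 libraries, 160 in DESeq2 and 559 at 12 and 24 h, with 1448 and 583 without the filter and 479 and 19 at 2 and 6 h. Leaving out each duration gave 411 to 1131 higher and 22 to 657 lower. For IL-2, 6 and 6 were called without the filter, 2 lower at 2 and 6 h, 29 and 6 at 12 and 24 h, and 1 and 2 with the GC offset, and 0 to 11 higher and 0 to 3 lower with a duration left out. Slopes called were 1 and 0 in DESeq2, 7 downward without the filter, 40 upward with the GC offset, and 0 to 111 upward and 0 to 9 downward with a duration left out. The median of the induced set ran from 0.06 to 0.19 over the settings, and was 0.24 for genes at least 4-fold induced. Signs reversed with 1 duration left out for Tap1 (-0.070 to 0.037), B2m (-0.023 to 0.0088) and Psmb8 (-0.056 to 0.056). With the 2 and 6 h libraries alone they reversed for Irf1 (-0.00089), Cxcl10 (-0.022), Tap1 (-0.086), Psmb8 (-0.082) and Rsad2 (-0.046), and with the 12 and 24 h libraries alone for B2m (0.023) and Isg15 (0.031). The cause was not tested. Depth limits the genes read at a few CPM, such as Serpina3f, C1s1, Gm1821, Rpl31-ps8 and Tgm2.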
